A study of Arabidopsis thaliana with 8 samples.

Results

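The aquaporins of *Arabidopsis*, also called major intrinsic proteins, were followed through RNA-Seq of dark-grown seedlings. All 35 members of the family were taken by locus identifier, without regard to their values: 5 PIP1, 8 PIP2, 10 TIP, 9 NIP and 3 SIP genes among the 33518 loci of the count table. Names are hyphenated here, so that *PIP2-1* is the gene usually written with a semicolon between its numbers. Of the 35 members, 30 passed a filter on low counts and were tested, among 20415 loci tested in all. The other 5 were *TIP1-3*, *TIP5-1*, *NIP4-1*, *NIP4-2* and *NIP7-1*, and their counts are given with the NIP and TIP genes.

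Each group held 2 libraries. The groups were the *iaa3* mutant (*iaa3/shy2-2*) with brassinolide (BL), *iaa3* with mock treatment, wild type (Col-0) with BL, and wild type with mock treatment. All 4 groups were grown in the dark for 5 days on medium with 2 µM propiconazole (PPZ), an inhibitor of brassinosteroid biosynthesis. BL, the most active brassinosteroid, was given at 100 nM for 4 hr. The *iaa3/shy2-2* allele is a dominant mutation that stabilizes the IAA3 protein, a repressor of auxin-responsive transcription. The seedlings carry it from germination on, so direct and long-term effects of the mutation cannot be told apart. The study used this set to ask how far gene responses to brassinosteroid need auxin signaling.

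Aquaporins are channels of the membrane that let water, and in some members small neutral solutes, pass down a gradient. PIP channels sit in the plasma membrane, where PIP1 proteins commonly need a PIP2 partner to arrive. TIP channels sit in the vacuole membrane, NIP channels carry solutes such as boric acid or lactic acid, and SIP channels are found in the endoplasmic reticulum. In elongating hypocotyls water must cross both the plasma membrane and the vacuole membrane as the vacuole fills.

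Libraries held 18107519 to 23183988 counts. Values are CPM, counts scaled to library size with edgeR's TMM factors, and a count of 3 corresponded to between 0.120 and 0.172 CPM in the 8 libraries. The 2 wild-type mock libraries stood farther apart than the other pairs, with a chi-square over its degrees of freedom of 12.1 against 3.93 to 5.64, and seed storage and hypoxia genes were higher in the first of them. *IAA3* itself was counted 198 and 259 times in *iaa3* with BL, 306 and 244 times in *iaa3* mock, 2874 and 2698 times in wild type with BL, and 997 and 1128 times in wild-type mock. The mutation lies in the protein, which the count table does not show. The labels do not say that the 2 libraries of a group came from separate cultures, so p-values measure only the spread between these libraries, which may be technical. A gene was called where it changed by 1.5-fold with an unadjusted p under 0.01 in edgeR's quasi-likelihood test, and a difference in BL response between genotypes where its adjusted p was under 0.05. Adjusted p values are Benjamini-Hochberg values over all tested loci. For a single value, 2 libraries against 2 cannot give an exact permutation p below 0.333. Groups without overlap are thus no evidence of a change by themselves, and their share over all tested loci was not counted.

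How well family members can be told apart depends on their sequences, so the closest pair is shown first. *PIP2-2* and *PIP2-3* were the most alike of 122 aligned pairs, with 813 of 858 coding bases identical (94.8%). They are neighbours on chromosome 2 that point away from each other, with 2612 bases between them. In the stretch of 60 coding bases from base 414 of the coding sequence that follows, taken from RefSeq (TAIR10.1), capitals mark the 10 bases at which they differ.
PIP2-2: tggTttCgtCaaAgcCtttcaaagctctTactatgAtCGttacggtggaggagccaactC
PIP2-3: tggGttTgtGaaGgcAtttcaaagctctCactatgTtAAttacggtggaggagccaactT
Of the 50-base windows of each transcript, 19.6% in *PIP2-2* and 21.7% in *PIP2-3* also occurred in the other, so the split of reads between them is uncertain there. Of the remaining pairs, *NIP4-1* and *NIP4-2* had 88.0% of coding bases identical and *PIP1-1* and *PIP1-2* had 87.6%. In all, 10 members shared at least 1 window with another locus and 25 shared none. *TIP3-1* shared 21.3% of its windows with AT1G73200, an overlapping gene on the opposite strand, and whether counting used the strand is not given in the sources used here. *NIP2-1* shared 10.2% of its windows with AT2G29870, which had 0 or 1 counts in each library. *SIP2-1* shared 7.63% with AT3G56940, a gene on the opposite strand. AT3G56940 had 5900 to 11178 counts per library, against 231 to 498 for *SIP2-1*. *TIP2-1* shared 6.23% with AT3G16250, also on the opposite strand.

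Most aquaporins of the plasma membrane and several of the vacuole membrane rose with BL in wild type. Of the 30 tested members, 17 rose and 2 fell, against a background of 8.45% of tested loci called higher and 5.87% called lower. The median log2 fold change of the members was 0.82, against -0.01 over all tested loci. The rises comprised 4 of 5 PIP1, 7 of 8 PIP2, 4 of 8 TIP, 1 of 6 NIP and 1 of 3 SIP genes. Aquaporins together made up 2.48% and 2.42% of all counts in the wild-type libraries with BL, against 1.17% and 1.20% in wild-type mock.

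**Figure D1:**
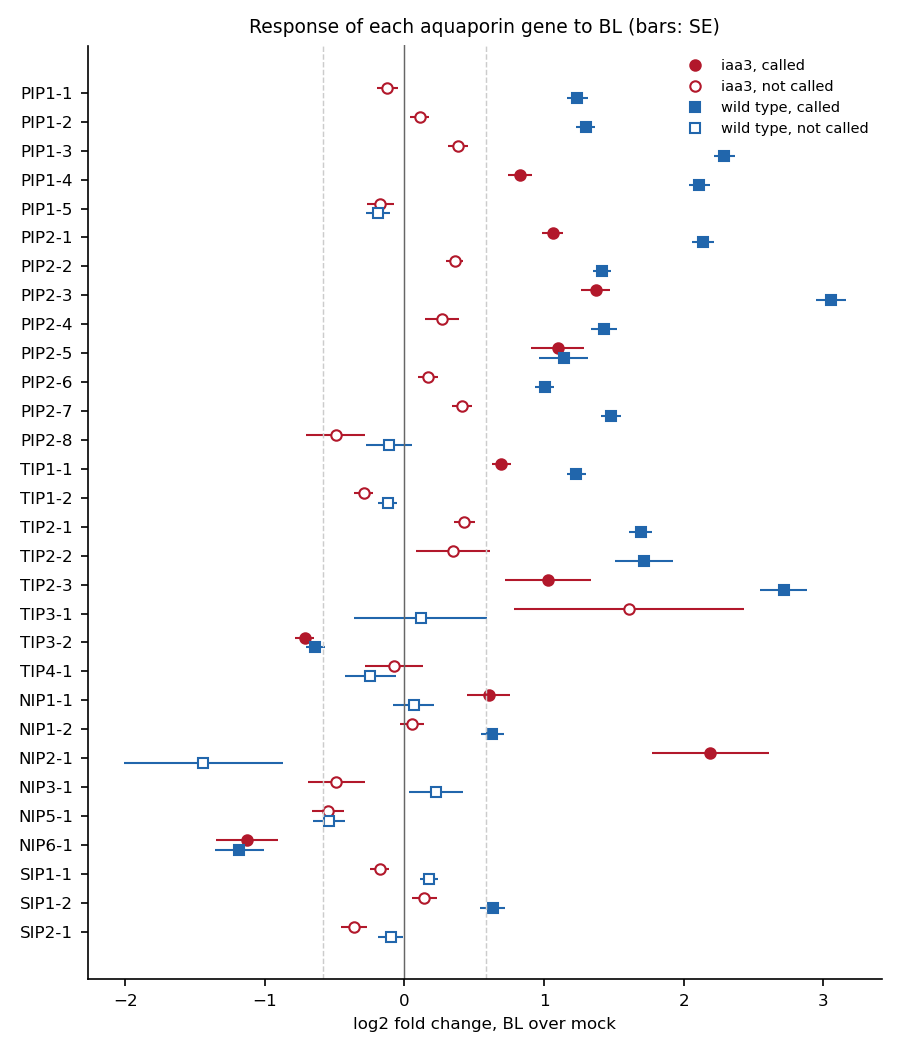
Log2 fold change of BL over mock (horizontal axis) with its standard error for the 30 tested aquaporins, in *iaa3* (red circles) and in wild type (blue squares), 2 libraries per group. Filled symbols were called, and dashed lines mark 1.5-fold. For all 17 genes that rose in wild type the *iaa3* value lies to the left of the wild-type value. The same held for 93.9% of all 1726 loci that rose in wild type.

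Summed over members, PIP1 transcripts averaged 8178 CPM with BL and 2895 CPM in mock in wild type, a ratio of 2.82. PIP2 transcripts averaged 8377 CPM with BL and 2641 CPM in mock, a ratio of 3.17, while TIP transcripts averaged 7711 and 5210 CPM, a ratio of 1.48. The NIP and SIP sums were far smaller, with 191 CPM with BL against 237 CPM in mock for NIP and 108 CPM with BL against 95.3 CPM in mock for SIP. In *iaa3* the whole family averaged 9485 ± 379 CPM with BL and 8615 ± 4.53 CPM in mock (SD, n = 2 each), a ratio of 1.10. In wild type it averaged 24566 ± 616 CPM with BL and 11078 ± 59.4 CPM in mock (SD, n = 2 each), a ratio of 2.22. The family ratio in *iaa3* joined unlike subfamilies. There the ratio of BL over mock was 1.46 for the PIP2 sum, 1.06 for PIP1 and 0.924 for TIP. It was 1.18 for NIP and 0.899 for SIP.

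**Figure D2:**
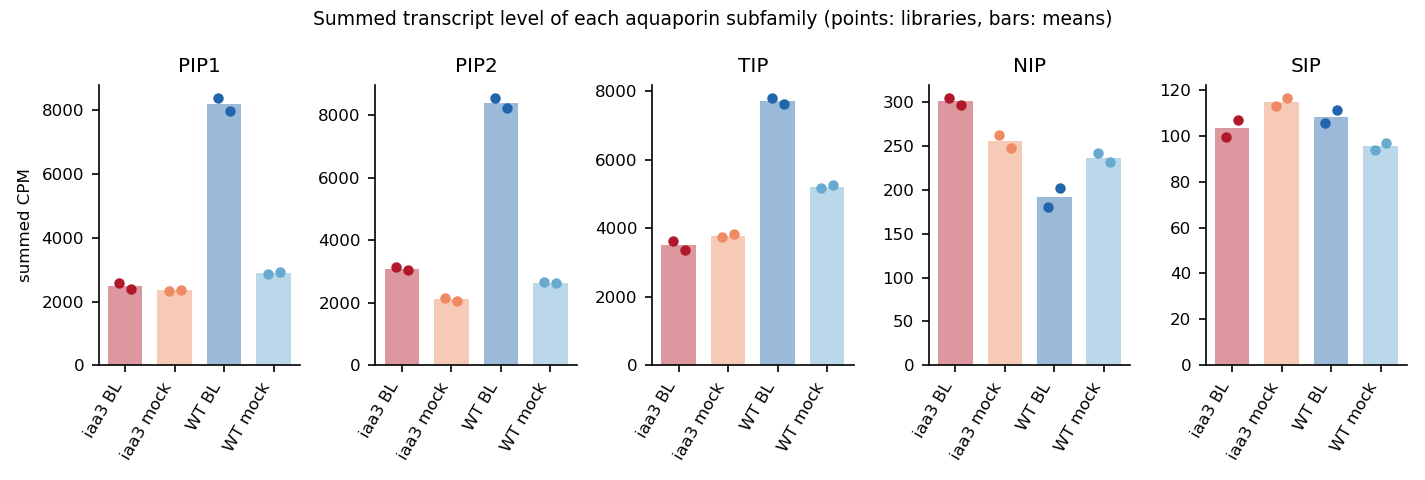
Summed CPM of the PIP1, PIP2, TIP, NIP and SIP genes (vertical axes, each from 0) in *iaa3* BL, *iaa3* mock, wild-type BL and wild-type mock, with points for libraries and bars for means of 2. The PIP1 and PIP2 sums with BL in wild type, 8178 and 8377 CPM, stand above the other 3 groups.

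Among the PIP1 genes, whose products carry water and, in part, CO2, *PIP1-3* (AT1G01620) rose most with BL in wild type. It had 3039 and 2813 CPM with BL, against 604 and 591 CPM in mock (log2 fold change 2.29, SE 0.08, adjusted p = 8.03e-09 in edgeR's quasi-likelihood test). *PIP1-2* (AT2G45960), a channel for water and CO2, had 3145 and 3067 CPM with BL, against 1236 and 1290 CPM in mock. *PIP1-1* (AT3G61430) had 1815 and 1776 CPM with BL, against 739 and 783 CPM in mock. For each of these the groups did not overlap, and the lower BL library was more than 2-fold above the higher mock library. *PIP1-4* (AT4G00430), far less abundant, had 145 and 132 CPM with BL, against 33.0 and 31.1 CPM in mock (log2 fold change 2.11, SE 0.08, adjusted p = 1.16e-08 in edgeR's quasi-likelihood test). *PIP1-5* (AT4G23400) was the exception within the PIP1 genes. It had 231 and 192 CPM with BL, against 252 and 231 CPM in mock, and did not pass the test (log2 fold change -0.19, adjusted p = 0.126).

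*PIP2-3* (AT2G37180) showed the largest rise in the family. This gene, also known as RD28 from its response to desiccation, had 372 and 343 CPM with BL, against 47.4 and 38.7 CPM in mock in wild type (log2 fold change 3.06, SE 0.11, adjusted p = 1.02e-08 in edgeR's quasi-likelihood test). The fold was 8.31, and the ratios between single libraries ranged from 7.24 to 9.61. Its near copy *PIP2-2* (AT2G37170) had 1767 CPM in both BL libraries, against 659 and 668 CPM in mock (log2 fold change 1.41). *PIP2-3* counts were 21.0% and 19.4% of *PIP2-2* counts with BL, against 7.20% and 5.79% in mock, so the 2 genes did not move in a fixed ratio. *PIP2-1* (AT3G53420), a channel for water and hydrogen peroxide, had 2753 and 2677 CPM with BL, against 641 and 592 CPM in mock (log2 fold change 2.14, SE 0.08). *PIP2-7* (AT4G35100), a water channel and the most abundant PIP over all libraries, had 3162 and 2964 CPM with BL, against 1093 and 1100 CPM in mock (log2 fold change 1.48). None of these groups overlapped.

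The less abundant PIP2 genes mostly rose as well. *PIP2-4* (AT5G60660), best known from roots, had 151 and 131 CPM with BL, against 51.1 and 53.5 CPM in mock, and *PIP2-6* (AT2G39010) had 324 and 314 CPM with BL, against 161 and 157 CPM in mock. *PIP2-5* (AT3G54820) was counted at low levels, 8.20 and 9.91 CPM with BL, against 3.72 and 4.46 CPM in mock (log2 fold change 1.14, SE 0.17, adjusted p = 0.000494 in edgeR's quasi-likelihood test). *PIP2-8* (AT2G16850) was the only PIP2 gene that did not pass, with 5.42 and 5.81 CPM with BL, against 5.22 and 6.86 CPM in mock.

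Vacuolar channels separated into genes that rose, genes that did not pass the test and 1 gene that fell. *TIP2-1* (AT3G16240), which carries water and ammonia, had 2940 and 2912 CPM with BL, against 932 and 881 CPM in mock in wild type (log2 fold change 1.69, SE 0.08, adjusted p = 7.43e-08 in edgeR's quasi-likelihood test). *TIP2-3* (AT5G47450), a channel for ammonia and water best known from roots, had 177 and 158 CPM with BL, against 23.2 and 27.7 CPM in mock, a 6.57-fold rise. *TIP2-2* (AT4G17340) had 223 and 214 CPM with BL, against 57.5 and 75.2 CPM in mock. *TIP1-1* (AT2G36830), the gamma-TIP of vacuoles in enlarging cells, had 904 and 890 CPM with BL, against 373 and 391 CPM in mock. *TIP1-2* (AT3G26520) was the most abundant aquaporin of all, and its groups did not differ past the threshold, with 3491 and 3390 CPM with BL, against 3692 and 3784 CPM in mock (log2 fold change -0.12, adjusted p = 0.199).

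**Figure D3:**
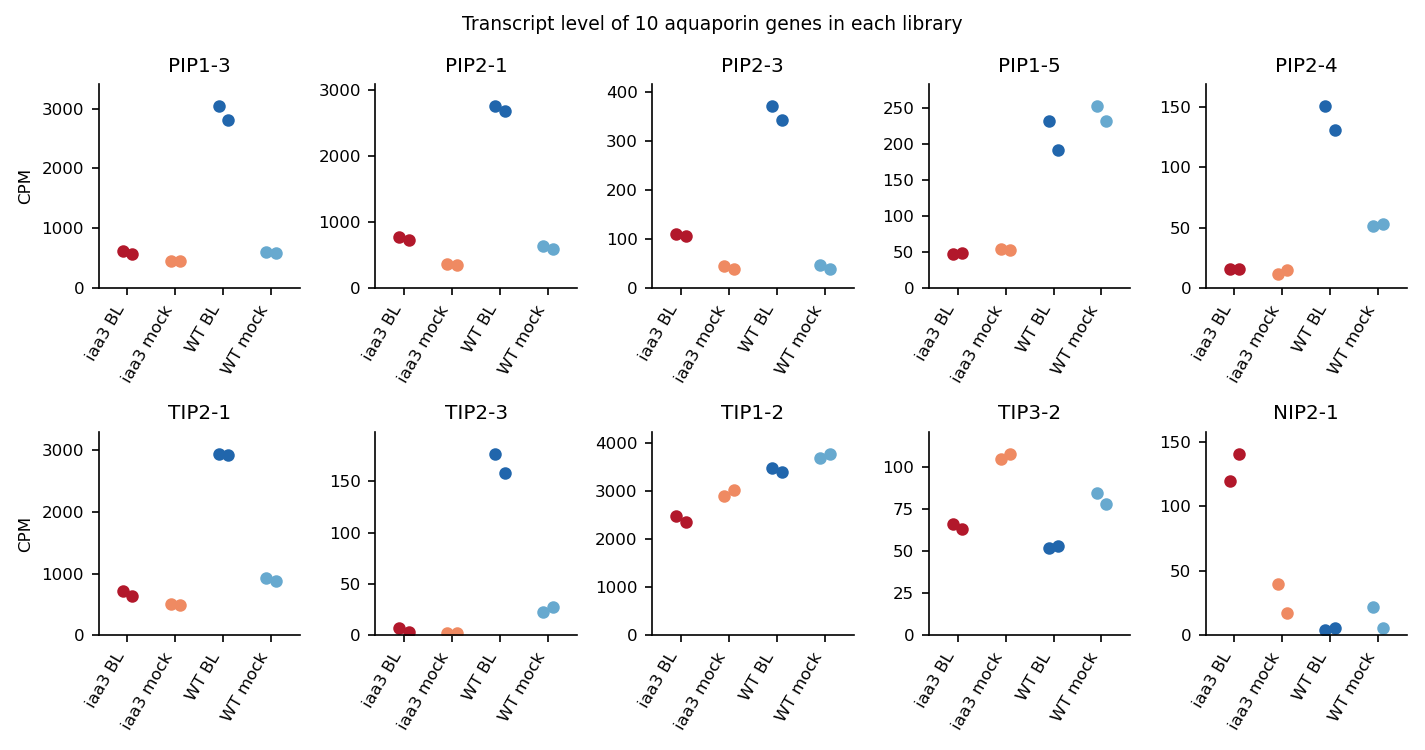
CPM (vertical axes, each from 0) of 10 aquaporins in each library, with *iaa3* BL, *iaa3* mock, wild-type BL and wild-type mock from left to right. *PIP2-3* stands at 372 and 343 CPM in wild type with BL, *PIP1-5* is lower in all 4 *iaa3* libraries than in the wild-type ones, and *NIP2-1* is high in *iaa3* with BL.

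*TIP3-2* (AT1G17810) and *TIP3-1* (AT1G73190) are the beta- and alpha-TIPs of seed protein storage vacuoles. *TIP3-2* fell with BL in wild type, to 51.8 and 52.8 CPM, against 84.8 and 78.0 CPM in mock (log2 fold change -0.64, SE 0.07, adjusted p = 3.49e-05 in edgeR's quasi-likelihood test). Without the first wild-type mock library the change was -0.57 and missed the 1.5-fold threshold. *TIP3-1* had 6.18 and 5.58 CPM with BL, against 8.98 and 2.03 CPM in mock, and its groups overlapped. Its log2 fold change of 0.12 became 1.53 without the first mock library and -0.60 without the second. *TIP4-1* (AT2G25810) had 3.72 and 4.87 CPM with BL, against 4.90 and 5.26 CPM in mock, and did not pass the test.

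Among the NIP genes, 1 rose and 1 fell with BL in wild type. *NIP1-2* (AT4G18910), which carries aluminium malate in roots, had 58.6 and 54.6 CPM with BL, against 36.4 and 36.8 CPM in mock (log2 fold change 0.63, SE 0.08). *NIP6-1* (AT1G80760), a boric acid channel of shoot nodes, fell to 5.69 and 4.87 CPM with BL, against 12.7 and 11.2 CPM in mock (log2 fold change -1.18, SE 0.18, adjusted p = 0.000431 in edgeR's quasi-likelihood test). *NIP5-1* (AT4G10380), which takes up boric acid in roots, had 101 and 124 CPM with BL, against 161 and 167 CPM in mock. Its log2 fold change of -0.54 lay under the 1.5-fold threshold and became -0.69, past it, without the second BL library. The call on *NIP1-2* was lost without the first BL library, and with library size alone as the scale it was 0.53.

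The remaining tested NIP genes gave no call with BL in wild type. *NIP1-1* (AT4G19030), an arsenite channel, had 6.45 and 7.10 CPM with BL, against 5.94 and 6.98 CPM in mock, and *NIP3-1* (AT1G31885), another arsenite channel, had 4.16 and 4.87 CPM with BL, against 4.35 and 3.39 CPM in mock. *NIP2-1* (AT2G34390), a lactic acid channel, had 4.16 and 5.85 CPM with BL, against 21.7 and 5.98 CPM in mock. *NIP7-1* (AT3G06100), a boric acid channel of anthers, had 10 and 6 counts with BL, against 1 and 1 in mock, and was too low to be tested. Of the genes best known from pollen, *TIP1-3* (AT4G01470), *TIP5-1* (AT3G47440) and *NIP4-1* (AT5G37810) had 0 counts in all libraries, and *NIP4-2* (AT5G37820) had at most 2. In a library, 0 counts allow up to 3 counts, the 0.120 to 0.172 CPM given above, and this limit covers counting error only.

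Of the SIP genes, found in the endoplasmic reticulum, 1 rose. *SIP1-2* (AT5G18290) rose in wild type, with 15.4 and 15.8 CPM with BL, against 10.02 and 10.12 CPM in mock (log2 fold change 0.63, SE 0.09), though its change was 0.53 with library size alone as the scale. *SIP1-1* (AT3G04090) had 71.7 and 78.0 CPM with BL, against 65.6 and 66.8 CPM in mock, and *SIP2-1* (AT3G56950) had 18.4 and 17.3 CPM with BL, against 18.3 and 19.9 CPM in mock. Neither passed the test.

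In *iaa3*, fewer aquaporins rose with BL. The count was 8 rises and 2 falls among the 30 tested members, against 4.69% of tested loci called higher and 3.46% called lower, with a median log2 fold change of 0.22 for the members and 0.01 over all tested loci. The rises comprised 1 of 5 PIP1, 3 of 8 PIP2, 2 of 8 TIP and 2 of 6 NIP genes. Of the 17 genes that rose in wild type, 6 also rose in *iaa3*: *PIP1-4*, *PIP2-1*, *PIP2-3*, *PIP2-5*, *TIP1-1* and *TIP2-3*. Of all 1726 loci that rose in wild type, 19.1% also rose in *iaa3*. *NIP1-1* and *NIP2-1* rose by this rule in *iaa3* and did not pass it in wild type.

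*PIP2-3* again led the plasma membrane genes in *iaa3*. It had 111 and 106 CPM with BL, against 44.9 and 39.1 CPM in mock (log2 fold change 1.37, SE 0.10, adjusted p = 1.18e-05 in edgeR's quasi-likelihood test). *PIP2-1* had 776 and 723 CPM with BL, against 373 and 345 CPM in mock (log2 fold change 1.06, SE 0.08), and *PIP2-5* had 6.37 and 7.67 CPM with BL, against 2.86 and 3.72 CPM in mock (log2 fold change 1.10, SE 0.19). *PIP1-4* had 27.3 and 26.9 CPM with BL, against 15.9 and 14.6 CPM in mock. These 4 groups of BL libraries lay above their mock libraries without overlap. *PIP1-3* had 624 and 573 CPM with BL, against 462 and 457 CPM in mock, and its log2 fold change of 0.38 was under the 1.5-fold threshold although its adjusted p was 0.00445 in edgeR's quasi-likelihood test. *PIP2-2* (692 and 666 CPM with BL, against 524 and 535 CPM in mock) and *PIP2-7* (1422 and 1412 CPM with BL, against 1105 and 1023 CPM in mock) were likewise under the fold threshold.

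The other PIP genes gave no call in *iaa3*. *PIP1-1* had 875 and 790 CPM with BL, against 897 and 915 CPM in mock, and *PIP1-2* had 1018 and 954 CPM with BL, against 911 and 917 CPM in mock. *PIP1-5* had 47.1 and 48.0 CPM with BL, against 54.2 and 52.9 CPM in mock. *PIP2-4* had 15.6 and 15.8 CPM with BL, against 11.5 and 14.6 CPM in mock. *PIP2-6*, at 108 and 120.0 CPM with BL and 102 and 101 CPM in mock, and *PIP2-8*, at 2.12 and 2.04 CPM with BL and 3.13 and 2.72 CPM in mock, did not pass either.

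Of the vacuolar channels, *TIP1-1* had 324 and 301 CPM with BL, against 194 and 193 CPM in *iaa3* mock (log2 fold change 0.69, SE 0.07, adjusted p = 7.41e-05 in edgeR's quasi-likelihood test). *TIP2-3* had 7.06 and 3.34 CPM with BL, against 2.73 and 2.27 CPM in mock (log2 fold change 1.03, SE 0.31, adjusted p = 0.0423). That rise rested on the first BL library, since it was 0.42 without it, and the call held in 8 of 14 refits. *TIP2-2* had 21.5 and 10.2 CPM with BL, against 12.4 and 12.1 CPM in mock, and its groups overlapped. Its log2 fold change of 0.35 was -0.26 without the first BL library and 0.81, past the rule, without the second. *TIP2-1* had 716 and 633 CPM with BL, against 513 and 488 CPM in mock (log2 fold change 0.43, under the fold threshold). *TIP1-2* had 2485 and 2353 CPM with BL, against 2902 and 3027 CPM in mock.

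*TIP3-2* and *NIP6-1* were the 2 aquaporins called lower with BL in both genotypes. *TIP3-2* fell to 66.2 and 63.3 CPM with BL in *iaa3*, against 104 and 108 CPM in mock (log2 fold change -0.71, SE 0.07), and *NIP6-1* fell to 3.16 and 1.79 CPM, against 5.36 and 5.31 CPM in mock (log2 fold change -1.13, SE 0.22). *NIP5-1* had 136 and 107 CPM with BL, against 177 and 179 CPM in mock, under the fold threshold at -0.55 and past it at -0.73 without the first BL library. *NIP1-1* had 6.88 and 8.47 CPM with BL, against 5.27 and 4.85 CPM in mock. Its log2 fold change of 0.60 was 0.44 without the second BL library, and its call was also lost without the second mock library. *NIP1-2* and *SIP1-2* gave no call here. *NIP1-2* had 34.8 and 35.7 CPM with BL, against 31.1 and 36.8 CPM in mock, and *SIP1-2* had 17.4 and 19.3 CPM with BL, against 16.9 and 16.5 CPM in mock.

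The rest of the family gave no call with BL in *iaa3*. *TIP3-1* had 1.15 and 2.39 CPM with BL, against 0.536 and 0.635 CPM in mock, and *TIP4-1* had 3.38 and 2.64 CPM with BL, against 2.91 and 3.40 CPM in mock. *NIP3-1* had 3.67 and 2.69 CPM with BL, against 4.20 and 4.67 CPM in mock, with no overlap between the groups. *SIP1-1* had 69.0 and 72.6 CPM with BL, against 78.6 and 81.5 CPM in mock, and *SIP2-1* had 13.2 and 14.7 CPM with BL, against 17.56 and 18.42 CPM in mock. For *NIP3-1*, *SIP1-1* and *SIP2-1* both BL libraries were lower, with changes under the fold threshold. Their adjusted p values were 0.132, 0.0994 and 0.0218, in the same order, in edgeR's quasi-likelihood test. *NIP7-1* had 0 and 1 counts with BL, against 0 and 1 in mock.

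*NIP2-1* had the largest rise of the family in *iaa3*. It had 119.7 and 141 CPM with BL, against 39.8 and 17.3 CPM in mock (log2 fold change 2.19, SE 0.42, adjusted p = 0.00462 in edgeR's quasi-likelihood test). Without the first *iaa3* mock library it was 2.91. In wild type its change with BL pointed the other way (log2 fold change -1.44, SE 0.57, adjusted p = 0.0793), and the difference between the genotypes in response to BL was 3.63 (adjusted p = 0.00515), or 2.44 and still called without the first wild-type mock library. The wild-type value depended on the mock libraries: it was -2.11 and called without the second, and -0.25 without the first. *NIP2-1* is a lactic acid channel induced by low oxygen, so a list of 8 hypoxia-responsive genes was followed beside it. Gene lists were chosen with earlier results of these data known, so they are no independent check. The summed level of that list was 5452 and 5836 CPM in *iaa3* with BL, 2409 and 1373 CPM in *iaa3* mock, 282 and 336 CPM in wild type with BL, and 1162 and 286 CPM in wild-type mock. All 8 were called higher in *iaa3* than in wild type with BL, against 11.2% of tested loci. A higher BL response in *iaa3* was called in 7 of 8, against 7.63% of tested loci. The 7 heat shock genes on a further list summed to 472 and 521 CPM in *iaa3* with BL and to between 26.3 and 50.6 CPM in the other 6 libraries. In mock *NIP2-1* was not called between genotypes, at 39.8 and 17.3 CPM in *iaa3*, against 21.7 and 5.98 CPM in wild type (log2 fold change 1.07), and it was called, at 2.25, without the first wild-type mock library and also without the second *iaa3* mock library. The part of either state in the *NIP2-1* levels was not tested.

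**Figure D4:**
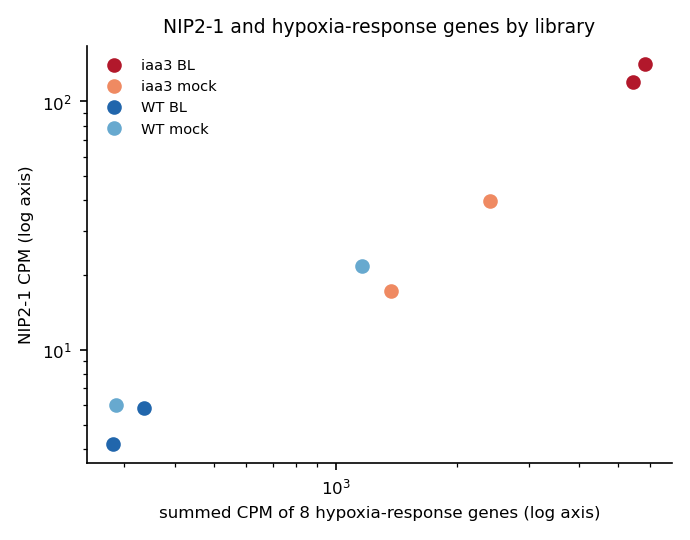
*NIP2-1* CPM (vertical axis, log scale) against the summed CPM of 8 hypoxia-responsive genes (horizontal axis, log scale) in the 8 libraries, coloured by group. The *iaa3* BL libraries lie at the upper right, at 119.7 and 141 CPM of *NIP2-1*, and the first wild-type mock library, at 21.7 CPM, lies apart from the second, at 5.98 CPM.

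The difference in BL response, *iaa3* minus wild type, was tested directly. It was called lower in 17 aquaporins and higher in 1, against 9.95% of tested loci called lower and 7.63% called higher, with a median of -0.56 over the members and 0.01 over all tested loci. The lower ones comprised 4 of 5 PIP1, 6 of 8 PIP2, 4 of 8 TIP, 1 of 6 NIP and 2 of 3 SIP genes. Of the 17 genes that rose in wild type, all 17 had a smaller log2 change in *iaa3* and 16 were called lower in the difference. *PIP2-5* was the exception, with a difference of -0.04. The wild-type response is part of this difference, and of all 1726 loci that rose with BL in wild type, 93.9% had a smaller log2 change in *iaa3* and 60.8% were called lower in the difference.

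*PIP1-3* had the largest reduction in response among the tested aquaporins. For *PIP1-3* the difference in log2 response was -1.91 (SE 0.10, adjusted p = 1.39e-06 in edgeR's quasi-likelihood test), and for *PIP2-3* it was -1.69 (adjusted p = 2.8e-05). *TIP2-3* also came to -1.69 (adjusted p = 0.0093), from counts that were low in *iaa3*, and its call was lost without the first *iaa3* mock library. *PIP1-1* (-1.36), *PIP1-4* (-1.28), *TIP2-1* (-1.26), *PIP1-2* (-1.19), *PIP2-4* (-1.16), *PIP2-1* (-1.08), *PIP2-7* (-1.07) and *PIP2-2* (-1.05) each had a log2 response lower by more than 1 in *iaa3*. *TIP2-2* also had -1.36 (adjusted p = 0.0178), and its call was lost under DESeq2 and when any of 4 single libraries was left out. *PIP2-6* (-0.84), *NIP1-2* (-0.58), *TIP1-1* (-0.54), *SIP1-2* (-0.49) and *SIP1-1* (-0.35) had smaller differences. The call on *SIP1-1* held in 6 and that on *SIP1-2* in 7 of 13 refits. *PIP1-5* (0.02), *NIP5-1* (-0.01) and *NIP6-1* (0.05) had differences near 0 that did not pass the test.

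With BL present, most aquaporins were lower in *iaa3* than in wild type. Of 30 tested members, 18 were called lower and 1, *NIP2-1*, higher, against 13.8% of tested loci called lower and 11.2% called higher. The median log2 fold change was -1.25 for the members and -0.003 over all tested loci. All 5 PIP1 genes, 7 of 8 PIP2 genes and 4 of 8 TIP genes were lower, along with *NIP1-2* and *NIP6-1*. The summed PIP1 level was 0.305 times and the summed PIP2 level 0.369 times that of wild type with BL. The summed NIP level was 1.57 times that of wild type, which *NIP2-1* alone carried, since without it the NIP sum was 170.5 CPM in *iaa3* and 186 CPM in wild type, a ratio of 0.915. This comparison shares libraries with both BL responses, so it is not independent of them. In the same comparison all 7 heat shock genes (median log2 fold change 5.07) and all 8 hypoxia genes (4.16) were called higher, and their part in the family's lower levels and smaller BL responses in *iaa3* was not tested.

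**Figure D5:**
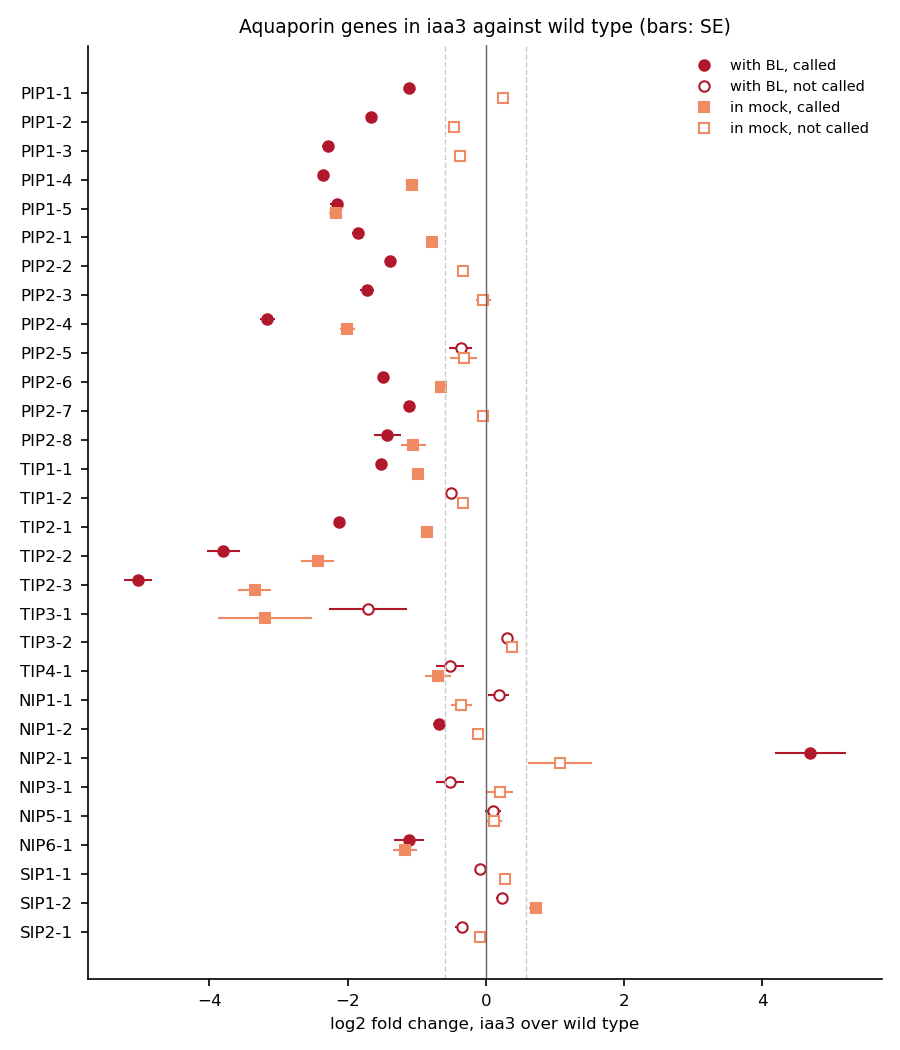
Log2 fold change of *iaa3* over wild type (horizontal axis) with its standard error for the 30 tested aquaporins, with BL (red circles) and in mock (orange squares), 2 libraries per group. *TIP2-3* lies lowest, at -5.04 with BL, *NIP2-1* lies highest, at 4.70 with BL, and *PIP1-5* has nearly the same value in both.

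*TIP2-3* differed most between genotypes. It had 7.06 and 3.34 CPM in *iaa3* with BL, against 177 and 158 CPM in wild type with BL (log2 fold change -5.04, SE 0.21, adjusted p = 2.42e-08 in edgeR's quasi-likelihood test), which is 32.8-fold lower, or -5.64 without the first *iaa3* BL library. *TIP2-2* had 21.5 and 10.2 CPM in *iaa3*, against 223 and 214 CPM in wild type, and was 13.9-fold lower (log2 fold change -3.80, or -4.42 without the first *iaa3* BL library). *PIP2-4* had 15.6 and 15.8 CPM in *iaa3*, against 151 and 131 CPM in wild type, and was 8.95-fold lower. All 3 are best known from roots. *NIP2-1* had 119.7 and 141 CPM in *iaa3*, against 4.16 and 5.85 CPM in wild type with BL (log2 fold change 4.70, SE 0.51, adjusted p = 2.75e-05 in edgeR's quasi-likelihood test), which is 26.0-fold higher, with ratios between single libraries of 20.5 to 33.9.

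Fewer aquaporins were called between genotypes without BL. In mock, 13 aquaporins were called lower in *iaa3* and 1, *SIP1-2*, higher, against 9.48% of tested loci called lower and 8.47% called higher, with a median of -0.37 for the members and -0.01 over all tested loci. The lower ones were 2 PIP1, 4 PIP2, 6 TIP genes and *NIP6-1*. The 5 most abundant PIP genes divided. *PIP2-1* had 373 and 345 CPM in *iaa3* mock, against 641 and 592 CPM in wild-type mock (log2 fold change -0.78). *PIP2-7* had 1105 and 1023 CPM, against 1093 and 1100 CPM in wild-type mock, and *PIP1-1* had 897 and 915 CPM, against 739 and 783 CPM. *PIP1-2* had 911 and 917 CPM, against 1236 and 1290 CPM in wild-type mock, and *PIP1-3* had 462 and 457 CPM, against 604 and 591 CPM. Of these 5, *PIP2-1* was called lower, and *PIP1-2* was called lower, at -0.59, with library size alone as the scale.

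*PIP1-5* was lower in *iaa3* under both treatments, and its change with BL passed the test in neither genotype. It had 54.2 and 52.9 CPM in *iaa3* mock, against 252 and 231 CPM in wild-type mock (log2 fold change -2.17, SE 0.09, adjusted p = 1.22e-07 in edgeR's quasi-likelihood test), and the same genotype difference with BL present was -2.15. *TIP2-3* had 2.73 and 2.27 CPM in *iaa3* mock, against 23.2 and 27.7 CPM in wild-type mock, 10.2-fold lower, and *TIP2-2* had 12.4 and 12.1 CPM, against 57.5 and 75.2 CPM (log2 fold change -2.44). *TIP1-1* had 194 and 193 CPM, against 373 and 391 CPM in wild-type mock (log2 fold change -0.98). In all, 11 aquaporins were called lower in *iaa3* under both treatments, 7 passed the rule with BL and not in mock, and *TIP3-1* and *TIP4-1* passed it in mock and not with BL. The share of all tested loci with such joint calls was not counted. Of the 7, *PIP1-2*, *PIP1-3* and *PIP2-2* were also lower in mock, under the fold threshold. Their log2 fold changes were -0.47, -0.38 and -0.33 (adjusted p = 0.000339, 0.00204 and 0.00237 in edgeR's quasi-likelihood test).

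Marker lists of root and vascular cell types were followed beside these root channels. Over all tested loci, 13.8% were called lower in *iaa3* with BL and 9.48% in mock, and 11.2% and 8.47% were called higher. Of 3 phloem markers, 1 was called higher and 1 lower in *iaa3* with BL, and 0 in mock. They summed to 140 and 139 CPM in *iaa3* with BL and 167 and 164 CPM in *iaa3* mock. The wild-type sums were 171 and 165 CPM with BL and 162 and 164 CPM in mock. The 3 xylem markers summed to 13.8 and 13.0 CPM in *iaa3* with BL and 19.7 and 16.1 CPM in *iaa3* mock, against 56.1 and 53.0 CPM in wild type with BL and 51.2 and 65.2 CPM in wild-type mock, and all 3 were called lower in *iaa3* under both treatments. The 5 endodermis markers summed to 32.9 and 26.9 CPM in *iaa3* with BL and 43.0 and 45.2 CPM in *iaa3* mock, against 46.5 and 43.6 CPM in wild type with BL and 108 and 120.4 CPM in wild-type mock. All 5 fell with BL in wild type, where *TIP2-2*, *TIP2-3* and *PIP2-4* rose. Of 4 markers of root stele and cortex, 2 were called lower in *iaa3* with BL and 3 in mock. The 4 summed to 168 and 142 CPM in *iaa3* with BL and 155 and 130 CPM in *iaa3* mock. In wild type they summed to 202 and 179 CPM with BL and 168 and 133 CPM in mock. *PHO1* had the most counts of the 4, 1947 to 2890 per library, and was not called between genotypes. Among them the cortex marker gene PEP (AT1G09750) rose with BL in wild type (log2 fold change 1.28). PEP was lower in *iaa3* with BL (-1.72) and in mock (-0.81), as these channels were. The cortex marker gene CO2 (AT1G62500) fell with BL in wild type (-1.92). It had 51 and 60 counts in *iaa3* with BL, against 44 and 66 in wild type with BL. In mock it had 77 and 62 counts in *iaa3*, against 219 and 219 in wild type. Of 5 root hair markers, *RHD6* was called higher in *iaa3* under both treatments, *COBL9* with BL and *EXPA7* in mock. In RNA from whole seedlings, fewer cells of a type and less RNA per cell cannot be told apart, and the part of cell composition in the aquaporin levels was not tested.

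*TIP3-1* had 0.536 and 0.635 CPM in *iaa3* mock, against 8.98 and 2.03 CPM in wild-type mock (log2 fold change -3.20, SE 0.68, adjusted p = 0.00398 in edgeR's quasi-likelihood test). Without the first wild-type mock library the change was -1.79, and it stayed called. Of 13 seed marker genes, 12 were tested and 6 were called lower in *iaa3* mock, against 9.48% of tested loci. The 6 were *CRA1*, *CRC*, *OLEO2*, *OLEO3*, *EM1* and *EM6*. The 13 summed to 39.8 and 241 CPM in *iaa3* with BL and 14.5 and 11.8 CPM in *iaa3* mock, against 409 and 296 CPM in wild type with BL and 884 and 137 CPM in wild-type mock. *TIP3-2* was not called between genotypes, with 104 and 108 CPM in *iaa3* mock, against 84.8 and 78.0 CPM in wild-type mock. *TIP4-1* had 2.91 and 3.40 CPM in *iaa3* mock, against 4.90 and 5.26 CPM in wild-type mock, and that call was lost with DESeq2 and without the second wild-type mock or the first *iaa3* mock library. Of 5 pollen markers, 4 had at most 3 counts in every library, as did the pollen aquaporins. The part of remaining seed transcripts in the *TIP3-1* levels was not tested.

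*NIP6-1* was lower in *iaa3* with BL and in mock (log2 fold changes -1.11 and -1.17), while *NIP5-1* was not called in either. The BOR genes, exporters of boric acid, numbered 7, of which 3 were tested. In wild type their log2 fold changes with BL were -0.28 for *BOR1*, 0.19 for *BOR2* and 0.20 for *BOR3*, under the fold threshold. *BOR1*, the xylem-loading exporter, fell with BL in *iaa3* (log2 fold change -0.81), and *BOR2* was lower in *iaa3* with BL (-1.44). *SIP1-2*, the 1 aquaporin higher in *iaa3* mock, had 16.9 and 16.5 CPM, against 10.02 and 10.12 CPM in wild-type mock (log2 fold change 0.73, SE 0.09, adjusted p = 0.000137 in edgeR's quasi-likelihood test).

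Compared per length of exon sequence, *TIP1-2* ranked 1st of the family in every group, at 1875 CPM per kb in *iaa3* with BL, 2298 in *iaa3* mock, 2667 in wild type with BL and 2898 in wild-type mock. *TIP2-1* was at 567 CPM per kb in *iaa3* with BL, 421 in *iaa3* mock, 2461 in wild type with BL and 762 in wild-type mock. In wild type with BL it was thus close to *TIP1-2*, followed by *PIP1-2* (1945), *PIP2-7* (1911), *PIP1-3* (1889) and *PIP2-1* (1726 CPM per kb). *NIP2-1* moved through the order more than the abundant genes did: it was at 92.9 CPM per kb and rank 10 in *iaa3* with BL, rank 17 in *iaa3* mock, and 3.57 CPM per kb and rank 29 in wild type with BL. The most abundant 8 genes held 86.9% to 89.4% of the family's CPM in each library.

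The makeup of the family shifted with BL. *TIP1-2* took 25.5% of family CPM in both *iaa3* libraries with BL and 33.7% and 35.1% in *iaa3* mock, and 14.0% in both wild-type libraries with BL, against 33.5% and 34.0% in wild-type mock. PIP2 genes together took 32.1% and 33.1% in *iaa3* with BL and 25.1% and 24.0% in *iaa3* mock, and 34.2% and 34.0% in wild type with BL, against at most 24.1% in wild-type mock. The PIP1 share was 26.6% and 26.0% in *iaa3* with BL and 27.2% and 27.3% in *iaa3* mock, and 33.5% and 33.1% in wild type with BL, against 25.9% and 26.3% in wild-type mock. The PIP2 share was thus higher with BL in both genotypes, and the PIP1 share in wild type.

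Genes that work beside aquaporins in turgor and in aquaporin trafficking were followed as 2 further lists. Of 24 tested genes for pumps, potassium channels and other osmolyte transport, 1 rose and 2 fell with BL in wild type, and 3 fell in *iaa3*. Over all tested loci, 8.45% were called higher and 5.87% lower with BL in wild type, and 3.46% lower in *iaa3*. The potassium transporter *KUP6* fell in both (log2 fold changes -0.83 in *iaa3* and -0.75 in wild type), and *CLC-a*, the vacuolar nitrate exchanger, rose in wild type (0.85). *HAK5*, a high-affinity potassium transporter, was also called lower in both, from few counts: 5 and 7 with BL against 62 and 85 in mock in *iaa3*, and 1 and 4 with BL against 12 and 17 in mock in wild type. Between genotypes with BL, 4 of the 24 were lower in *iaa3* and 1 was higher, against the 13.8% and 11.2% of all tested loci given above. The lower ones were the outward potassium channels *GORK* (-2.19) and *SKOR* (-1.92), *CLC-a* (-1.24) and the vacuolar proton pump subunit *VHA-B3* (-0.60), and the higher one was the inward channel *AKT1* (0.67). Of 8 tested regulators of PIP traffic and turnover, 3 rose with BL in wild type, against 8.45% of tested loci. The risers were the *RMA1* (0.73) and *RMA2* (0.90) ubiquitin ligases and the receptor kinase *QSK1* (0.75). In *iaa3* their changes of 0.23, 0.41 and 0.39, in the same order, were under the fold threshold. In mock, 3 of the 8 regulators were called higher in *iaa3* and 1 lower, against 8.47% and 9.48% of tested loci. The 8 summed to 817 and 901 CPM in *iaa3* with BL and 678 and 692 CPM in *iaa3* mock. In wild type they summed to 606 and 631 CPM with BL and 414 and 398 CPM in mock. Between genotypes with BL, 2 of the 8 were higher in *iaa3* and 1 was lower, against 11.2% and 13.8% of tested loci. *SYP121*, a syntaxin for delivery of PIP2 proteins (1.18), and *RMA1* (0.61) were higher, and *TSPO*, which draws PIP2 proteins into degradation, was lower (-1.51).

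The 250 bases before the annotated start of each gene were searched on both strands for motifs named in the study and for the brassinosteroid response element. The HUD motif (CACATG, or CATGTG on the other strand) occurred in 11 of 35 members (31.4%) and in 4 of the 17 genes that rose with BL in wild type (23.5%), against 11.2% of 26645 upstream regions of the same length. The share in the genes that rose was thus below that of the whole family. The G-box (CACGTG) occurred in 0 members and in 6.60% of all regions. That element (CGTGTG or CGTGCG) occurred in 1 member, *NIP3-1*, and in 6.73% of regions, the auxin response element TGTCTC in 1 member, *SIP2-1*, and in 10.9%, and TGTCGG in 1 member, *TIP1-2*, and in 4.16%. The regions of the 4 risers with a HUD motif are printed to show its place, with the motif in capitals, and those of *PIP2-3* and *TIP2-3*, whose rises were largest, to show regions without any of these letters. Each is in the direction of its gene, in TAIR10.1 from RefSeq.
PIP1-2, chr2:18909831-18910080, plus strand: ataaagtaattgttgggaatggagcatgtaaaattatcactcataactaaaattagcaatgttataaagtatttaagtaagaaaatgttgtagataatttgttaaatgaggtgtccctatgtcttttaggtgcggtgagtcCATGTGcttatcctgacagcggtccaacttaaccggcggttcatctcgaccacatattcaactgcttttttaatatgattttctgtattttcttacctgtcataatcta
PIP2-5, chr3:20301509-20301758, plus strand: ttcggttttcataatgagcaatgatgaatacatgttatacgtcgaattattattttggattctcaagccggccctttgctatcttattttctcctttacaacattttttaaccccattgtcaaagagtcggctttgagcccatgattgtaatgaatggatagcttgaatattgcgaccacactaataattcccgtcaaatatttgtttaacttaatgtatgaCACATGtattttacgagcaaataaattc
TIP2-1, chr3:5505110-5505359, plus strand: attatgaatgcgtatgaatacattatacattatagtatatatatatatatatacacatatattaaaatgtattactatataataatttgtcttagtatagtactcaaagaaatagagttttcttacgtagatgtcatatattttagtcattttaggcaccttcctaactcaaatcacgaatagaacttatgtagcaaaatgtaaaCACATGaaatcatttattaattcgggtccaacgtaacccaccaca
NIP1-2, chr4:10365794-10366043, plus strand: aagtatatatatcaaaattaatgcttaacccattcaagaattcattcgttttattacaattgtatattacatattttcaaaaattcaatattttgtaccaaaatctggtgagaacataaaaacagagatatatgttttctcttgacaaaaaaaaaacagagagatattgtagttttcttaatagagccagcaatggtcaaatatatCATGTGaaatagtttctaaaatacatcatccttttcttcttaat
PIP2-3, chr2:15617385-15617634, plus strand: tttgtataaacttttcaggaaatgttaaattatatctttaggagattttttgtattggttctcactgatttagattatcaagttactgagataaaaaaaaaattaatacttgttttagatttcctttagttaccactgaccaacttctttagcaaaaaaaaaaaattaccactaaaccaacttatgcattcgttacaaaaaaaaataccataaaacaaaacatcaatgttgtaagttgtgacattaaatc
TIP2-3, chr5:19249623-19249872, minus strand: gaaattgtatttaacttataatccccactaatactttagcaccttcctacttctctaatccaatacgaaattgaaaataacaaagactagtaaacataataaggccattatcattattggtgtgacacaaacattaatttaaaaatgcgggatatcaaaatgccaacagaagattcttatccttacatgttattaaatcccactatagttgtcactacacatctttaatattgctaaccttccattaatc
The motif began 109 bases before the start in *PIP1-2*, 28 in *PIP2-5*, 45 in *TIP2-1* and 44 in *NIP1-2*. A match is a run of letters and not a measured binding site, and binding was not analysed here.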

How the data were processed

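RNA-Seq libraries from dark-grown seedlings were analysed from 1 table of counts. The deposited values are raw read counts per locus, which the authors made without normalization. The submitters' processing notes name CASAVA 1, TopHat, HTSeq and TAIR9, and the treatment of strand and of reads with several matches is not given in the sources used here. Members were chosen by locus from the known family, and members and gene lists were chosen with earlier results of these data known. Counts were filtered with filterByExpr, scaled by TMM and fitted in 1 model over 8 libraries (edgeR 4.0.16, R 4.3.3), after the script was tested on simulated data. Calls used the study's rule of 1.5-fold and an unadjusted p under 0.01. Genes were named if among the 10 most abundant members, among the 3 largest rises or falls of a comparison, or called in the interaction; the rest were given to account for all members, after their values were seen. Alternatives were DESeq2 1.42.0, other scales, filters and thresholds, a replicate block and each library left out. Sequences came from RefSeq (TAIR10.1), matched by locus for 35 of 35 members.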

Additional observations from a re-analysis of the deposited data

Results flagged for a closer look

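For 18 of 30 tested aquaporins the BL response differed between *iaa3* and wild type by the interaction term of edgeR's quasi-likelihood test (Benjamini-Hochberg adjusted p under 0.05). Over all tested loci, 9.95% were called lower and 7.63% higher by this term. Each value is the log2 response in *iaa3* minus that in wild type. Among PIP1 genes the differences were *PIP1-1* -1.36, *PIP1-2* -1.19, *PIP1-3* -1.91 and *PIP1-4* -1.28. Among PIP2 genes they were *PIP2-1* -1.08, *PIP2-2* -1.05, *PIP2-3* -1.69, *PIP2-4* -1.16, *PIP2-6* -0.84 and *PIP2-7* -1.07. Among TIP genes they were *TIP1-1* -0.54, *TIP2-1* -1.26, *TIP2-2* -1.36 and *TIP2-3* -1.69. The remaining ones were *NIP1-2* -0.58, *NIP2-1* 3.63, *SIP1-1* -0.35 and *SIP1-2* -0.49. *NIP2-1* was the only 1 of the 18 with a higher response in *iaa3*. The calls on *TIP2-2*, *SIP1-1* and *SIP1-2* were lost under DESeq2.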

How the results depend on the processing

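With a stricter threshold (2-fold, or an adjusted p under 0.01 for the interaction), 1 aquaporin fell with BL in wild type, 5 rose and 1 fell in *iaa3*, and 0 were higher and 8 lower in *iaa3* mock. All tested loci then gave 1441, 775, 2992 and 1906 calls in the 4 pairwise comparisons and 1746 in the interaction, against 2925, 1664, 5110, 3664 and 3589. Leaving out 1 library at a time gave 1 to 3 aquaporins lower with BL in wild type, 1 to 2 higher in *iaa3* mock, 1 to 2 with a higher BL response in *iaa3*, and 2026 to 4137 interaction calls over all loci. No call reversed its direction. Library size alone moved the median of all genes to -0.11 for BL in wild type and -0.13 for *iaa3* in mock, and the share of calls that were higher to 45.4% (59.0% by TMM), 34.1% (47.2%) and, for the interaction, 56.2% (43.4%). Over 14 refits (13 for the interaction), 24, 25, 29, 27 and 25 of 30 members kept their call for BL in wild type, BL in *iaa3*, genotype with BL, genotype in mock and the interaction. Deviations of same-numbered libraries correlated at 0.237 between wild-type mock and *iaa3* mock. Between the other pairs of groups the correlations were -0.063 to 0.059. No cross-pairing was made, and a shared source of the deviations in the mock libraries was not tested. A replicate block gave 2939, 1692, 5116, 3678 and 3889 calls over all loci and changed 1 aquaporin call, *TIP3-1*, to make 19 lower in *iaa3* with BL.

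With 2 libraries a group, small changes cannot be resolved, and counts under about 10 CPM, as in *PIP2-5*, *PIP2-8*, *TIP3-1*, *TIP4-1*, *NIP1-1*, *NIP3-1* and *NIP6-1*, carry wider errors. Reads shared by *PIP2-2* and *PIP2-3* were counted by rules not given in the sources used here.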
